A study of Bos taurus with 6 samples.

Results

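The genes described here are 9 components of the tight junction, the claudins CLDN3, CLDN4, CLDN6, CLDN7 and CLDN12, the junctional adhesion molecule F11R, occludin (OCLN) and the scaffold proteins TJP1 and TJP3. They were chosen by name, by their symbols and Entrez gene identifiers, and were 9 of the 19163 genes in the deposited count table. RNA-seq data were obtained from the bovine embryonic stem cell (bESC) line F7, made from in vitro fertilized Holstein Friesian embryos. MC-F7 was F7 grown on mouse embryonic fibroblasts arrested with mitomycin C, and MT-F7 was F7 moved from such feeders to fibroblasts fixed with methanol. Each group had 3 libraries, and the samples are described as passage 15. No gene was altered in either group, and both were kept in the same medium with FGF and the WNT inhibitor IWR1. The medium was renewed every day for MC-F7 and every other day for MT-F7, so feeder and feeding schedule cannot be told apart in this comparison. Both groups are 1 cell line. Dissociated cells were left on gelatin before the floating cells were taken, a step meant to remove attached fibroblasts. The study reports that a larger part of the MT-F7 reads than of the MC-F7 reads aligned to the bovine genome. It proposes that fixed feeders left less feeder contamination. Feeder RNA left in the libraries could not be measured from the counts, and its part in the values was not tested.

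Tight junctions seal the space between neighbouring epithelial cells near their apical side. Claudins form the strands of the seal across the gap, and the claudins that a cell makes set which ions and small molecules can pass. Occludin and the immunoglobulin-type adhesion molecules lie in or beside the strands, and the TJP (ZO) proteins bind the tails of these membrane proteins and join them to actin. Pluripotent stem cells and the early embryo are epithelial, and CLDN6 is widely used as a surface marker of human pluripotent cells.

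The libraries held between 21958386 and 24933430 reads counted on genes. Levels are given as CPM, counts per 1000000 counts after TMM scaling of the library sizes. A negative log2 fold change means a lower level in MT-F7, and genes were called at an adjusted p under 0.05 in edgeR's quasi-likelihood test over 13001 genes. Replicate 3 stood somewhat apart in both groups, since it held the highest share of reads on mitochondrial genes (28.3% in MC-F7 and 27.9% in MT-F7, against 16.3% to 23.2% in the other 4 libraries). No source says that the libraries within a group were grown as separate cultures, so p-values cover only the spread among these libraries. The study's statistics section speaks of at least 3 technical replicates, without naming the RNA-seq libraries. In RNA from whole cultures, fewer cells of a type and less RNA per cell cannot be told apart.

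Of the 9 genes, 5 were lower in MT-F7, namely CLDN3, CLDN4, CLDN6, CLDN7 and F11R, and TJP1 was higher. CLDN12, OCLN and TJP3 did not pass the threshold. Among all 13001 tested genes, 23.2% were called, 11.3% lower and 11.9% higher. The groups did not overlap in 7 of the 9 genes, with MT-F7 below in 6 and above in 1. Over all tested genes 40.0% did not overlap, 20.1% with MT-F7 below and 19.9% with MT-F7 above. The study's text holds 2 fold limits beside an unadjusted p under 0.05, 1.5 as a log2 value and 1 with no scale named. With the limit of 1.5, CLDN7 and F11R were the 2 members called, both lower, where 6.58% of all tested genes were called and 3.09% were lower. With 1 read as a log2 limit, a reading added after the data were seen, CLDN3, CLDN4, CLDN7 and F11R were called, all 4 lower, against 13.0% of all tested genes and 6.04% lower. The median log2 fold change of the 9 genes was -0.65, against -0.0026 over all tested genes. Without replicate 3 of both groups the counts of calls were also 5 lower and 1 higher, in a fit that called 4242 of 13073 tested genes, against 3016 of 13001. Together the 9 genes took 0.0441% to 0.0570% of the counts in the MC-F7 libraries and 0.0309% to 0.0345% in the MT-F7 libraries. The plot of CPM by library shows both the size of the differences and the spread behind them.

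**Figure D1:**
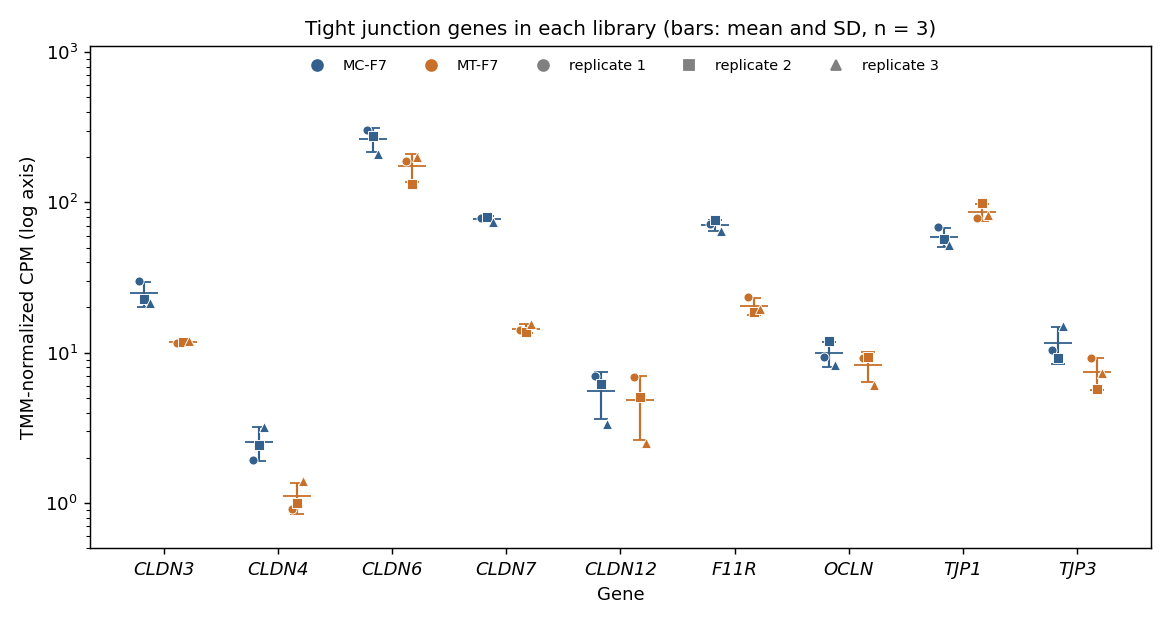
TMM-normalized CPM (log axis) of the 9 tight junction genes in the 3 MC-F7 libraries (blue) and the 3 MT-F7 libraries (orange), with each replicate number as a symbol and bars for mean and SD. CLDN7 lies at 74.5 to 80.3 CPM in MC-F7 and 13.7 to 15.5 in MT-F7, TJP1 is the gene whose MT-F7 libraries all lie above those of MC-F7, and CLDN12 and OCLN overlap.

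CLDN7, an epithelial claudin that binds the adhesion protein EPCAM, showed the largest difference of the 9 genes. CLDN7 (Entrez 512975) was at 78.3, 80.3 and 74.5 CPM in replicates 1, 2 and 3 of MC-F7 and at 14.3, 13.7 and 15.5 CPM in those of MT-F7. The spread within either group was small beside the gap between them, with means of 77.7 ± 2.96 and 14.5 ± 0.931 CPM (SD, n = 3 libraries). The level was 5.37-fold lower in MT-F7 (log2 fold change -2.42, SE 0.15, adjusted p = 7.6e-07 in edgeR's quasi-likelihood test with Benjamini-Hochberg adjustment).

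CLDN3 and CLDN4 are sealing claudins of many epithelia, and both are receptors for the Clostridium perfringens enterotoxin. CLDN3 (Entrez 404153) was at 30.2, 22.9 and 21.3 CPM in MC-F7 and at 11.7, 11.8 and 12.0 CPM in MT-F7. Every MC-F7 library was above every MT-F7 library, and the log2 fold change was -1.07 (SE 0.18, adjusted p = 0.00087). CLDN4 (Entrez 414921) was a low gene, with 44, 59 and 69 counts in the MC-F7 libraries against 23, 26 and 33 in those of MT-F7, or 1.95, 2.45 and 3.23 CPM against 0.916, 1.00 and 1.40 CPM. Its libraries also did not overlap between the groups, and the log2 fold change was -1.20 (SE 0.35, adjusted p = 0.024). The adjusted p of CLDN4 missed the threshold without MC-F7 replicate 2 (0.069), MC-F7 replicate 3 (0.082), MT-F7 replicate 1 (0.092) or MT-F7 replicate 2 (0.079), with the log2 fold change between -1.40 and -0.996 over the 6 fits with 1 library left out. CLDN3 and CLDN4 lie next to each other in the RefSeq gene order and their sequences are related, so reads may have been divided between them by the counting.

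CLDN6, the claudin of early embryonic epithelium, had the most counts of the 9 genes in every library. CLDN6 (Entrez 511318) was at 304, 278 and 211 CPM in MC-F7 and at 188, 132 and 200 CPM in MT-F7. The lowest MC-F7 library was only just above the highest MT-F7 library, and both of these were replicate 3. The log2 fold change of CLDN6 was -0.61 (SE 0.19, adjusted p = 0.038). The call was lost without MC-F7 replicate 1 (adjusted p = 0.12), MC-F7 replicate 2 (0.13), MT-F7 replicate 1 (0.067) or MT-F7 replicate 2 (0.16), and in limma on log2(TPM + 1) (0.20) and log2(TPM + 0.1) (0.19). Without replicate 3 of both groups the log2 fold change of CLDN6 was -0.85 (adjusted p = 0.00048).

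CLDN12, an atypical claudin whose tail lacks the usual motif for binding the TJP proteins, did not pass the threshold. CLDN12 (Entrez 538709) was at 7.03, 6.22 and 3.37 CPM in MC-F7 and at 6.89, 5.10 and 2.51 CPM in MT-F7. The groups overlapped, and replicate 3 was the lowest library of each. The log2 fold change was -0.20 with a 95% interval from -0.89 to 0.50 (adjusted p = 0.73), so a difference of about the size seen for CLDN6 lies within the interval.

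F11R encodes JAM-A, an immunoglobulin-type adhesion molecule that helps to place the polarity proteins at the junction. F11R (Entrez 281258) was at 71.6, 76.3 and 64.3 CPM in MC-F7 and at 23.5, 18.6 and 19.4 CPM in MT-F7. The lowest MC-F7 library was well above the highest MT-F7 library, and the level was 3.44-fold lower in MT-F7 (log2 fold change -1.78, SE 0.16, adjusted p = 7.6e-06). F11R, CLDN3 and CLDN7 had an adjusted p under 0.05 in all 16 alternative fits, but CLDN3 fell short of the log2 fold limit of 1.5. F11R overlaps TSTD1 in the RefSeq annotation, and whether the authors' counting used the strand is not stated. TSTD1 was at 11.5 to 13.3 CPM in MC-F7 and 11.6 to 13.2 CPM in MT-F7 (log2 fold change 0.02, adjusted p = 0.95).

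OCLN encodes occludin, a protein with a MARVEL domain that lies in the strand beside the claudins. OCLN (Entrez 512405) was at 9.42, 11.9 and 8.32 CPM in MC-F7 and at 9.24, 9.39 and 6.07 CPM in MT-F7. The groups overlapped, with replicate 3 lowest in both, and the log2 fold change was -0.27 (95% interval -0.70 to 0.17, adjusted p = 0.43).

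TJP1 encodes ZO-1, the scaffold that binds claudins, F11R, occludin and actin. TJP1 (Entrez 407102) was at 68.6, 57.0 and 52.1 CPM in MC-F7 and at 79.0, 99.8 and 81.9 CPM in MT-F7. All MT-F7 libraries were higher than all MC-F7 libraries, and the log2 fold change was 0.55 (SE 0.16, adjusted p = 0.026). The call was lost without MC-F7 replicate 2 (adjusted p = 0.12), MC-F7 replicate 3 (0.068) or MT-F7 replicate 2 (0.12), and in limma on log2(TPM + 1) (0.057). TJP3 encodes ZO-3, a scaffold found mainly in epithelial cells. TJP3 (Entrez 407100) was at 10.4, 9.29 and 15.2 CPM in MC-F7 and at 9.20, 5.72 and 7.30 CPM in MT-F7. The groups just failed to overlap, but TJP3 did not pass the threshold (log2 fold change -0.65, SE 0.24, unadjusted p = 0.019, adjusted p = 0.070).

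Levels of different genes can be compared only per length of transcript, and for this the deposited TPM values were rescaled to add up to 1000000 in each library. On this scale CLDN6 stood first in both groups, at a mean rescaled TPM of 264 ± 53.4 for MC-F7 and 182 ± 32.1 for MT-F7 (SD, n = 3). In MC-F7 it was followed by CLDN7 (75.1), F11R (33.0), CLDN3 (26.6), TJP1 (13.3), OCLN (5.67), TJP3 (4.26), CLDN4 (2.13) and CLDN12 (2.11). F11R and CLDN3, OCLN and TJP3, and CLDN4 and CLDN12 were neighbours whose libraries overlapped. In MT-F7 TJP1 (20.7) came after CLDN6, and CLDN7 (14.8), CLDN3 (13.4), F11R (10.1), OCLN (5.0), TJP3 (2.89), CLDN12 (1.95) and CLDN4 (0.981) followed. The ranges of the last 4 genes overlapped from each to the next, and those of the first 5 did not.

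The composition of the claudin transcripts was described over all 21 claudins of the table, 5 of them among the 9 genes. Their summed level was 513, 485 and 363 rescaled TPM in MC-F7, against 348, 260 and 327 in MT-F7, and every MT-F7 library was below every MC-F7 library, MC-F7 replicate 3 only slightly above MT-F7 replicate 1. CLDN6 held 58.0% ± 1.89 of the sum in MC-F7 (SD, n = 3) against 58.2% ± 2.84 in MT-F7, and the groups overlapped. The share of CLDN7 was 14.6%, 16.7% and 19.1% in MC-F7, against 4.23%, 5.59% and 4.59% in MT-F7, a difference of -12.0 percentage points. CLDN9, a claudin that lies next to CLDN6 and was chosen after its values were seen, held 16.5%, 13.9% and 13.9% in MC-F7, against 28.5%, 26.6% and 24.8% in MT-F7, a difference of 11.9 percentage points. The shares of CLDN7 and CLDN9 did not overlap between the groups, and each gave an exact two-sided permutation p of 0.1, the smallest that 3 libraries against 3 can give. By raw counts the difference of the CLDN9 share was 6.31 percentage points. As with CLDN3 and CLDN4, whether the counting divided reads between CLDN9 and the adjacent CLDN6 was not tested. CLDN9 itself was at 36.5, 27.7 and 22.4 CPM in MC-F7 and at 39.7, 26.9 and 34.5 CPM in MT-F7 and did not pass the test (log2 fold change 0.22, adjusted p = 0.47). CLDN3 held 5.89% ± 0.524 and 4.38% ± 0.844, with overlapping groups (exact permutation p = 0.2).

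**Figure D2:**
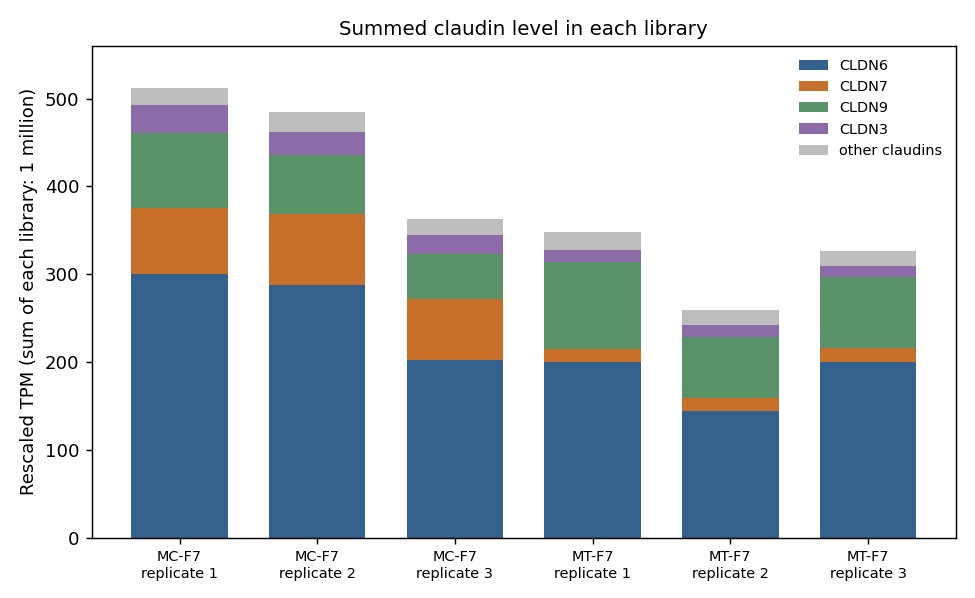
Summed claudin level (rescaled TPM, linear axis) in each of the 6 libraries, stacked by CLDN6, CLDN7, CLDN9, CLDN3 and the other claudins. The CLDN7 band takes 14.6% to 19.1% of the bar in MC-F7 and 4.23% to 5.59% in MT-F7, whereas the CLDN6 band takes 55.8% to 61.3% over all 6 libraries.

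Whether related members differed in their response was tested on the log2 ratio of their CPM within a library, for 4 pairs, with a prior count of 2 added before the log. CLDN6 over CLDN7 rose from a mean log2 ratio of 1.75 ± 0.23 in MC-F7 to 3.55 ± 0.25 in MT-F7 (SD, n = 3), a change of 1.81. CLDN7 over CLDN12 went from 3.86 ± 0.51 to 1.68 ± 0.81, and TJP1 over TJP3 from 2.37 ± 0.51 to 3.56 ± 0.51. In these 3 pairs the libraries did not overlap, and each had an exact two-sided permutation p of 0.1, the smallest possible (0.13 after Benjamini-Hochberg adjustment over the 4 pairs). The design cannot reach 0.05 by this test. The adjacent claudins CLDN3 and CLDN4 gave log2 ratios of 3.90, 3.18 and 2.69 in MC-F7, against 3.55, 3.45 and 3.02 in MT-F7, which overlapped (exact permutation p = 1). Their mean change was 0.08 with the prior count, 0.11 with 1 added to the counts and 0.14 for plain CPM, a calculation added after the data were seen.

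The other genes of the tight junction were read from a list of 64, of which 59 were in the count table and 45 were tested. Of the 45, 6 were lower (CLDN19, LSR, CGNL1, CRB3, PATJ and SH3BP1), 8 were higher (JAM2, JAM3, ILDR2, MPDZ, TJAP1, PRKCZ, AMOT and ARHGAP17) and 31 were not called. That was 31.1% called, against 23.2% of all tested genes, with a median log2 fold change of 0.11 against -0.0026. Among the other 16 claudins of the table, 6 were tested and 1 was lower, and 5 claudins were at 0 in all 6 libraries. The claudin that was lower is CLDN19, at 2.49 to 3.13 CPM in MC-F7 and 1.12 to 1.43 CPM in MT-F7 (log2 fold change -1.15, adjusted p = 0.016, and 0.062 without MT-F7 replicate 2). CLDN19, LSR, JAM2 and JAM3 were named after their values were seen.

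**Figure D3:**
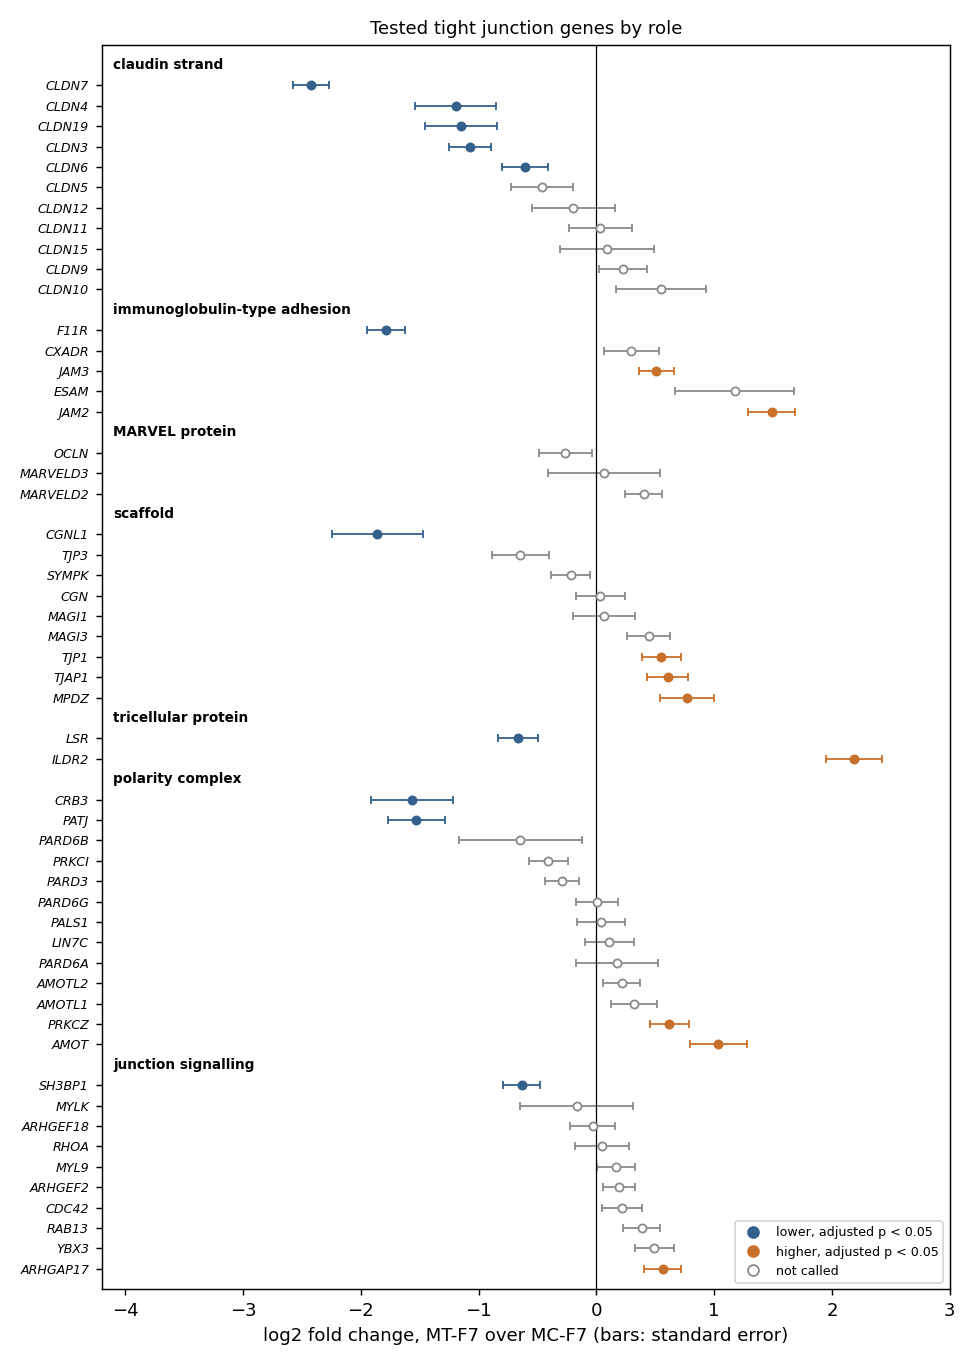
Log2 fold change of MT-F7 over MC-F7 (bars, SE) for the 9 genes and other tested tight junction genes, grouped by role, with filled blue points lower, filled orange points higher and open points not called. Lower and higher calls stand side by side within the adhesion, scaffold, tricellular, polarity and signalling groups, and the 5 called claudins are all lower.

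The immunoglobulin-type adhesion molecules moved in both directions. JAM2, a relative of F11R known from endothelium, was at 10.3, 8.08 and 7.58 CPM in MC-F7 and at 28.0, 25.8 and 19.1 CPM in MT-F7. It was higher in every MT-F7 library (log2 fold change 1.49, adjusted p = 0.00018), where F11R was lower. JAM3 was at 41.7 to 45.7 CPM in MC-F7 and 55.1 to 68.8 CPM in MT-F7 (log2 fold change 0.51, adjusted p = 0.026), a call that was lost without MC-F7 replicate 1 (0.053), MC-F7 replicate 2 (0.090), MC-F7 replicate 3 (0.057) or MT-F7 replicate 1 (0.096). MARVELD2, the tricellular relative of occludin, did not pass the test (log2 fold change 0.40, adjusted p = 0.086).

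Of the tested proteins of the corners where 3 cells meet, ILDR2 and LSR were called, in opposite directions, and MARVELD2 was not. ILDR2 was at 2.21, 1.91 and 1.64 CPM in MC-F7 and at 8.01, 10.2 and 8.07 CPM in MT-F7 (log2 fold change 2.19, adjusted p = 3.5e-05). LSR, the lipolysis-stimulated lipoprotein receptor, was at 139, 139 and 127 CPM in MC-F7 and at 84.5, 66.5 and 105 CPM in MT-F7 (log2 fold change -0.66, adjusted p = 0.014). The call of LSR was lost without MC-F7 replicate 2 (0.065), MT-F7 replicate 1 (0.052) or MT-F7 replicate 2 (0.078), and in limma on log2(TPM + 1) (0.070) and log2(TPM + 0.1) (0.066).

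Of the 8 other scaffolds tested, 1 was lower and 2 were higher, where 11.3% of all tested genes were lower and 11.9% higher. CGNL1, or paracingulin, which ties junctions to small GTPases, was at 1.90, 2.74 and 4.63 CPM in MC-F7 and at 0.956, 0.772 and 0.807 CPM in MT-F7 (log2 fold change -1.86, adjusted p = 0.0040, and 0.063 in limma on log2(TPM + 1)). In the polarity complexes, which set the apical border of the junction, 2 of 13 tested genes were lower and 2 were higher. Those were 30.8% called, against 37.5% of the scaffolds and 23.2% of all tested genes. CRB3, the Crumbs protein of epithelial cells, was at 5.04, 3.11 and 2.48 CPM in MC-F7 and at 1.47, 1.00 and 1.10 CPM in MT-F7 (log2 fold change -1.57, adjusted p = 0.0058). PATJ, the scaffold that links Crumbs complexes to TJP3 and claudins, was at 5.44 to 6.59 CPM in MC-F7 and 1.87 to 2.20 CPM in MT-F7 (log2 fold change -1.53, adjusted p = 0.00060). MPDZ, a PDZ scaffold related to PATJ, went the other way, from 22.7 ± 7.58 to 38.7 ± 6.86 CPM (SD, n = 3, log2 fold change 0.77, adjusted p = 0.028). The MPDZ call was lost without MC-F7 replicate 1 (0.086), MC-F7 replicate 2 (0.10), MT-F7 replicate 1 (0.080) or MT-F7 replicate 3 (0.081), and in limma on log2(TPM + 1) (0.053) and log2(TPM + 0.1) (0.058).

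Proteins that bind claudins or act on their stability formed a list of 8 genes, of which 6 were tested, 4 were lower and 0 were higher, beside 11.3% lower and 11.9% higher over all tested genes. At an unadjusted p under 0.05 the number higher in edgeR's test was also 0, and it was 0 with DESeq2. EPCAM, which holds CLDN7 at the membrane, was at 168, 149 and 103 CPM in MC-F7 and at 72.3, 63.2 and 49.6 CPM in MT-F7 (log2 fold change -1.18, adjusted p = 0.0011). ST14, the membrane protease matriptase that cleaves EPCAM, had a log2 fold change of -1.36 (adjusted p = 0.00014). SPINT1, an inhibitor of matriptase, was at 11.9 to 14.9 CPM in MC-F7 and 2.51 to 3.23 CPM in MT-F7 (log2 fold change -2.16, adjusted p = 1.3e-05). SPINT2, a related inhibitor, was at 107 to 150 CPM in MC-F7 and 128 to 143 CPM in MT-F7 and was not called (log2 fold change 0.03, adjusted p = 0.93). CD9, a tetraspanin that associates with claudins, had a log2 fold change of -1.35 (adjusted p = 0.0029), and its call was lost in limma on log2(TPM + 1) (0.091) and log2(TPM + 0.1) (0.078).

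Transcription and splicing factors known to act on epithelial junction genes were called in both directions, 5 lower and 2 higher of 14 tested in a list of 18, where 11.3% and 11.9% of all tested genes were called. ESRP1, an epithelial splicing factor, was at 17.7, 18.4 and 24.0 CPM in MC-F7 and at 4.86, 4.40 and 3.91 CPM in MT-F7 (log2 fold change -2.19, adjusted p = 7.9e-06). OVOL2, a repressor of mesenchymal genes, was low in both groups and lower in MT-F7 (log2 fold change -1.88, adjusted p = 0.0032). GRHL3, a Grainyhead factor of surface epithelia, was at 0.0442, 0.124 and 0.421 CPM in MC-F7 (1, 3 and 9 counts) and at 4.82, 4.91 and 3.27 CPM in MT-F7 (log2 fold change 4.46, adjusted p = 5.2e-05). GRHL2, the Grainyhead factor best known for claudin genes, was counted 1, 8 and 9 times in MC-F7 and 4, 0 and 6 times in MT-F7 and was too low to be tested. Among the repressors of CDH1 and claudin genes, SNAI1 was lower (log2 fold change -1.40, adjusted p = 0.00055) and ZEB1 was higher (0.73, adjusted p = 0.0068). TWIST2, another repressor, was lower at a mean of 1.81 ± 0.312 against 0.406 ± 0.291 CPM (SD, n = 3, log2 fold change -2.15, adjusted p = 0.011). SNAI1 and ZEB1 were named after their values were seen.

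Adherens junctions and desmosomes lie below the tight junction, and of 18 tested genes in this list of 20, 3 were lower and 5 were higher, beside the same 11.3% and 11.9% of all tested genes. CDH1, or E-cadherin, was at 423, 366 and 325 CPM in MC-F7 and at 109, 92.6 and 93.1 CPM in MT-F7, a log2 fold change of -1.92 (adjusted p = 5.2e-06). CDH2, or N-cadherin, was at 120, 120 and 79.5 CPM in MC-F7 and at 331, 324 and 250 CPM in MT-F7, a log2 fold change of 1.5 (adjusted p = 0.00014). Neither cadherin overlapped between the groups. PERP, a desmosome membrane protein, was lower (log2 fold change -1.06, adjusted p = 0.0013), and NECTIN3, an adhesion molecule that binds afadin, was higher (1.02, adjusted p = 0.0058). The other 6 tested desmosome genes, DSP among them, were not called (DSP at 149 to 171 CPM in MC-F7 and 175 to 186 CPM in MT-F7, adjusted p = 0.37).

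**Figure D4:**
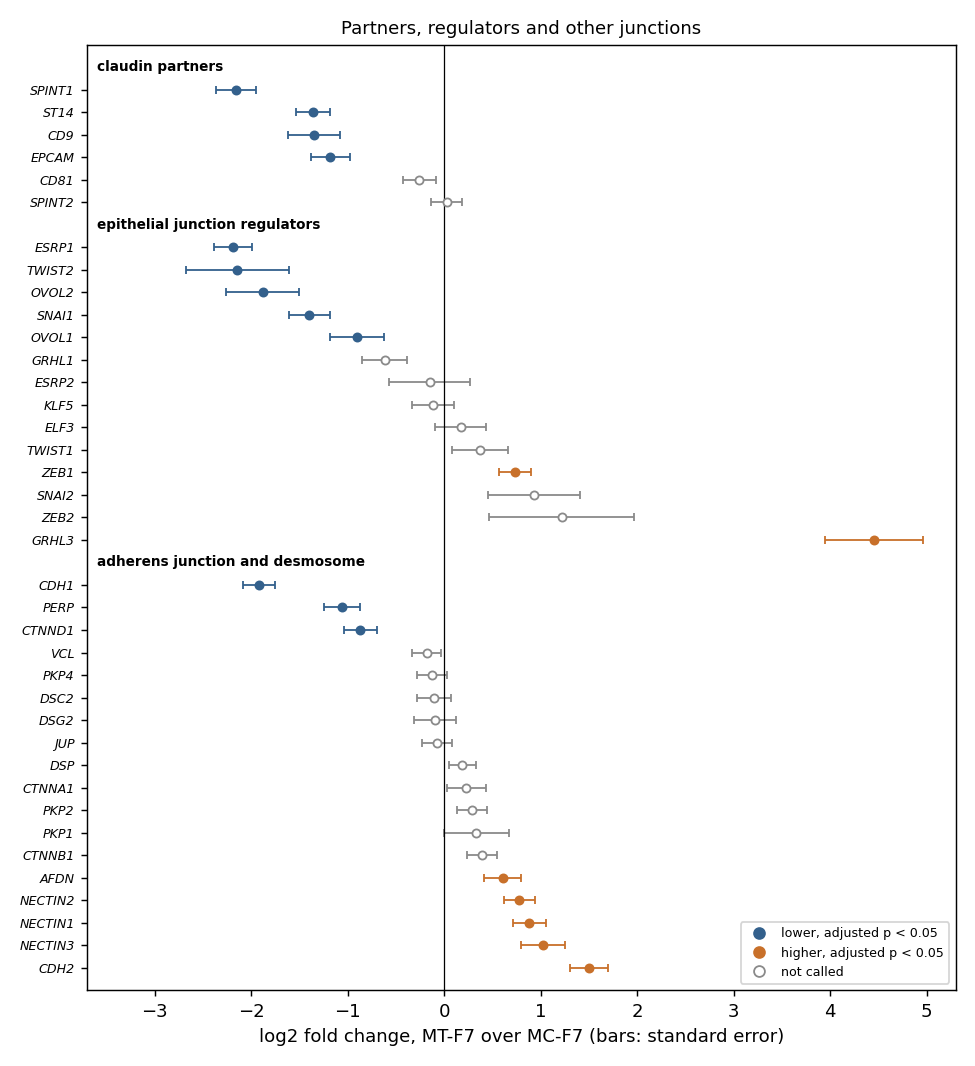
Log2 fold change of MT-F7 over MC-F7 (bars, SE) for tested genes of claudin partners, regulators of epithelial junctions, and adherens junctions and desmosomes, coloured by call. SPINT1, ESRP1 and CDH1 lie farthest to the left of their lists, at -2.16, -2.19 and -1.92, and GRHL3 and CDH2 farthest to the right, at 4.46 and 1.5.

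Markers of cell types moved between the same libraries, in which 11.3% of all tested genes were lower and 11.9% higher. The pluripotency gene POU5F1 was at 825 to 1456 CPM in MC-F7 and 486 to 557 CPM in MT-F7, so both groups carried the defining marker of the labelled cell type, and 6 of 8 tested pluripotency markers were lower in MT-F7 (CRIPTO -2.65, NANOG -2.02, DNMT3B -1.20 and POU5F1 -1.19 as log2 fold changes). The summed level of the list was 1363 to 2033 CPM in MC-F7 and 750 to 869 CPM in MT-F7. Of 9 tested trophectoderm markers 6 were lower, the keratins KRT7 (-3.34), KRT18 (-2.15), KRT8 (-1.37) and KRT19, and the factors EOMES (-0.80) and GATA2. The summed level of the list was 2171 to 3305 CPM in MC-F7 and 873 to 1012 CPM in MT-F7. Of the 16 genes in this sum, 7 were too low to be tested. GATA2 passed in 10 of 15 alternative fits, and its log2 fold change was -0.054 in limma on log2(TPM + 1). KRT19 passed in 14 of 16. The call of EOMES was lost without MC-F7 replicate 2 (adjusted p = 0.075), MT-F7 replicate 1 (0.065) or MT-F7 replicate 2 (0.052), and in limma on log2(TPM + 0.1) (0.082). That of POSTN was lost without MT-F7 replicate 2 (0.059) and in limma on log2(TPM + 1) (0.073) and log2(TPM + 0.1) (0.067), and that of POU5F1 in limma on log2(TPM + 1) (0.053). CDX2, the defining trophectoderm factor, was at 0 in all 6 libraries. Neural ectoderm markers were higher for 7 of 11 tested, among them PAX3 (3.60), LHX2 (3.23), RAX (2.98) and PAX6 (2.92). Their list summed to 816 to 935 CPM in MC-F7 and 1729 to 1818 CPM in MT-F7. Over the alternative fits the log2 fold change ran from 0.24 to 4.14 for PAX3 and from 3.04 to 3.35 for LHX2. For RAX it ran from 2.60 to 3.16, and for PAX6 from 1.45 to 2.99. Fibroblast markers were higher for 5 of 15 tested, COL3A1 (1.65), POSTN (1.24) and FBN1 (1.17) among them, and lower for TWIST2, with sums of 337 to 404 CPM against 515 to 556 CPM. Of 5 tested endoderm markers, FOXA2 (-3.26) was lower and 2 were higher, TTR (3.76) and APOA1 (1.11). Their list summed to 127 to 209 CPM against 333 to 372 CPM. Over the alternative fits FOXA2 ran from -3.68 to -0.44, TTR from 0.29 to 4.19 and APOA1 from 0.91 to 1.30. Surface ectoderm markers were higher for 1 of 3 tested, GRHL3, and their sum was 2.08 to 3.03 CPM against 6.50 to 7.38 CPM. The part of these cell types in the tight junction values was not tested.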

How the data were processed

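RNA-seq libraries of MC-F7 and MT-F7 (3 each, labels giving group and replicate) were used. Per the labels and methods, the authors used HISAT2 2.0.5 for alignment to the bovine genome and counted reads per gene with featureCounts 1.5.0-p3. They deposited raw counts by Entrez gene and a table of values called TPM by Ensembl gene. The genome build is not given in the sources used here. Identifiers were matched to symbols with the RefSeq gene table (19074 of 19163), which was used only for names and gene order. The ratio of deposited TPM to count was the same in all 6 libraries within 0.1% for 9681 of 9682 genes whose counts were 50 or more throughout, and the columns added up to between 154763 and 164394. Library size was therefore still in these TPM values. They were rescaled to 1000000 per library for the order of levels and the claudin shares. The limma fits used the deposited values without rescaling, so library size was still in those fits. Column totals were 154763 to 161716 in MC-F7 and 163772 to 164394 in MT-F7, which by construction moves the limma log2 fold changes up somewhat. At these column totals the added 1 or 0.1 also weighs more on low genes than it would on a scale of 1000000. No sequences were printed, because no sequence table was used here.

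Counts were filtered with filterByExpr (minimum count 10, minimum total count 15), normalized by TMM (factors 0.971 to 1.04) and tested with edgeR 4.0.16 in R 4.3.3 by the two-sided quasi-likelihood test on group alone, with Benjamini-Hochberg adjustment over all 13001 tested genes. Intervals are 1.96 SE on either side, which is somewhat narrower than a 95% interval from the quasi-likelihood test. Alternatives used RLE factors, library size only, DESeq2 1.42.0, other count filters, removal of mitochondrial genes, limma 3.58.1 on log2(TPM + 1) and log2(TPM + 0.1), a replicate block, each library left out in turn, and the limit of the study's results (absolute log2 fold change over 1.5, unadjusted p under 0.05). The study's methods name a fold limit of 1 without a scale. That limit, read as log2, ratios of plain CPM, and leaving out replicate 3 of both groups were added after the data were seen. On simulated counts for 13021 genes in this design, 188 of 200 changed genes were recovered (88% at a log2 fold change of 1 and 100% at 2), and 10 calls (5.05%) were wrong. Changed genes were drawn only above a limit of total counts that CLDN4, CLDN19 and GRHL3 do not reach. The recovery rates therefore do not cover genes as low as these. Every simulated gene had the same dispersion, and no likeness between same-numbered libraries was built in. Shares and ratios were compared by exact permutation tests (scipy 1.17.1).

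The 9 genes and all lists were chosen with earlier results of these data known. Named genes were the 9, the 4 largest called changes with a mean of at least 1 CPM in each other junction list, CDH1, EPCAM and GRHL2, the gene most alike in pattern to each called member, and the genes next to CLDN3, CLDN4, CLDN6 and CLDN7, and 1 further gene of the rule is not reported here. Any other gene named is a relative of one of these or a cell type marker and was chosen after its values were seen. At these depths counts limit the low genes, and counts cannot tell copies of the same molecule apart.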

Additional observations from a re-analysis of the deposited data

How the results depend on the processing

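CLDN3, CLDN7 and F11R had an adjusted p under 0.05 in all 16 alternative fits. With a log2 fold limit of 1.5 and an unadjusted p under 0.05, called the stricter limit here, CLDN3 was not called. The number of the 9 genes lower in MT-F7 (5) was 3 to 5 with 1 library left out and 2 under the stricter limit, which fewer genes can pass, and the number higher (1) was 0 to 1 with 1 library left out, 0 in limma on log2(TPM + 1), where the adjusted p of TJP1 was 0.057, and 0 under the stricter limit. For the other tight junction genes, 6 lower became 4 to 6 with 1 library left out and 3 under the stricter limit, and 8 higher became 3 to 8 and 1. The lowest of these, 3 higher, came without MC-F7 replicate 2. In that fit 1914 of 13177 tested genes were called in all, against 3016 of 13001 with all 6 libraries. Over the 6 fits with 1 library left out, the genes called in all numbered 1914 to 3093, so these counts also follow the number of calls in each fit. Under the stricter limit, lower partners were 1, lower regulators 3, lower adherens and desmosome genes 1 and higher ones 1, and higher regulators were 1. With a log2 fold limit of 1, 4 of the 9 genes were lower and 0 higher, 4 other tight junction genes were lower and 4 higher, higher regulators were 1 and higher adherens and desmosome genes 2. Higher regulators were also 1 when every library had to hold at least 10 counts, where GRHL3 was not tested. Regulators lower were 4 to 6 and higher 2 to 3 with 1 library left out. The difference of the CLDN6 share, 0.202 percentage points, was 4.82 by raw counts and -1.36 to 1.42 with 1 library left out, and it was negative without MC-F7 replicate 3 (-0.865) or MT-F7 replicate 3 (-1.36). The difference of the CLDN9 share was 6.31 by raw counts and 10.9 to 12.8 with 1 library left out. The log2 fold change of CLDN12 was -0.54 to 0.11 with 1 library left out, turning to 0.010 and 0.11 without MC-F7 replicate 1 and without MT-F7 replicate 3. Neighbouring genes near 0 also changed sign, HCFC1R1 (-0.16 to 0.047 with 1 library left out) to 0.047, 0.030, 0.071 and 0.075, METTL27 to 0.033 and 0.069, SLC2A4 (-0.12 to 0.0089) to 0.0089, 0.0073, 0.038 and 0.060, and TSTD1 (-0.039 to 0.077) to -0.039, -0.023 and -0.053. The limma fits kept library size, which was larger in MT-F7, and by construction this moves their log2 fold changes up. How far it accounts for sign changes or lost calls in limma was not tested. Where no construction is named, the cause was not tested.

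The deviations of same-numbered libraries correlated at 0.134, 0.0445 and 0.417 for replicates 1, 2 and 3. Not every library was most like its own number, but replicate 3 was in both groups. Replicate 3 of MC-F7 correlated at -0.232 and -0.306 with replicates 1 and 2 of MT-F7. Replicate 3 of MT-F7 correlated at -0.323 and -0.141 with replicates 1 and 2 of MC-F7. For each gene the deviations cancel out within a group. The positive value of replicate 3 with replicate 3 therefore forces negative values elsewhere, which are not separate observations. Whether same-numbered libraries were handled together was not tested. With the replicate number as a block, 6 of the 9 genes were lower, TJP3 being added (adjusted p = 0.011), and 1 was higher, while 7 of the other tight junction genes were lower and 12 higher, and 4674 genes were called in all, against 3016 without the block. Without replicate 3 of both groups the 9 genes gave 5 lower and 1 higher, and 4242 of 13073 tested genes were called. CLDN4 and GRHL2 are limited by depth.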

Other observations

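Among 7806 tested genes averaging 10 CPM or more, the gene whose log2 CPM followed each called member most closely over the 6 libraries was NUDC for CLDN3 (Pearson's r 0.998), TEX11 for CLDN4 (0.996), NEU1 for CLDN6 (0.997), PDGFA for CLDN7 (0.998), LCK for F11R (0.999) and EPS8 for TJP1 (0.993). The 6 points fall into 2 groups of libraries, and these values describe the likeness of patterns only. LCK, a kinase best known from T cells, averaged 115 CPM in MC-F7 and 11.1 CPM in MT-F7 (log2 fold change -3.38), and PDGFA, a growth factor, from 60.7 to 17.2 CPM (-1.82). NEU1 had a log2 fold change of -0.36 and did not pass the threshold (adjusted p = 0.13). An r over 0.95 was reached by 334 genes for CLDN7, 320 for F11R, 289 for CLDN3, 140 for CLDN4, 137 for TJP1 and 29 for CLDN6.

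Apart from CLDN3 and CLDN4 themselves, the tested genes next to CLDN3, CLDN4, CLDN6 and CLDN7 in the RefSeq order (ARS-UCD2.0) did not pass the threshold with all 6 libraries and no replicate block. METTL27 and ABHD11, which flank the pair CLDN4 and CLDN3, had log2 fold changes of -0.05 (adjusted p = 0.89) and -0.41 (adjusted p = 0.086). ABHD11 passed without MC-F7 replicate 3 (-0.50, adjusted p = 0.048), without replicate 3 of both groups (-0.37, 0.023) and with the replicate block (-0.42, 0.012). ELP5 and SLC2A4 (the glucose transporter GLUT4), which flank CLDN7, had values of 0.18 (adjusted p = 0.48) and -0.07 (adjusted p = 0.78), beside -2.42 for CLDN7. HCFC1R1, on the side of CLDN6 away from CLDN9, was at -0.05 (adjusted p = 0.84). TNFRSF12A, whose annotated span overlaps CLDN6, was at -0.54 (adjusted p = 0.073). It passed without MC-F7 replicate 3 (-0.70, adjusted p = 0.016), without MT-F7 replicate 3 (-0.68, 0.030), without replicate 3 of both groups (-0.83, 0.00077) and with the replicate block (-0.53, 0.021). Without strand-specific counting its reads and those of CLDN6 cannot be told apart where they overlap.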
